A study of Mus musculus with 2 samples.

Results

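The genes described here are the endoplasmic reticulum (ER) folding and unfolded protein response genes, 33 of the 46983 genes in the deposited tables. They were chosen by symbol and not by a cut on measured values, but with earlier results of these data known. All 33 were present in both libraries. They were measured by droplet single-cell RNA sequencing in tdTomato-sorted islet cells of 9-day-old mice, in 2 libraries. All animals carried 1 Neurod1 Cre allele (Neurod1 Cre/+), which recombines floxed DNA in cells that express the endocrine factor Neurod1, together with the tdTomato reporter. Control animals had 1 floxed Isl1 allele (Isl1f/+) and animals of the library labelled Isl1CKO had both alleles floxed (Isl1f/f). Isl1 encodes a LIM-homeodomain factor that acts in islet endocrine development. The control is therefore heterozygous for the floxed allele in Cre-expressing cells, and no Cre-free group is described here. Actinomycin D, a blocker of transcription, was present while the tissue of both groups was perfused and dissociated.

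Each library is a pool of 6 animals, so each genotype is 1 sample. No difference below has a replicate check and none was tested. Cells of a library are not replicates, and every interval given is an exact 95% interval for counting error alone. Isl1 itself stood at 253 CPM (UMIs of the gene per 1000000 UMIs) in control cells, against 461 CPM in Isl1CKO. These values are not on a like scale, since islet hormones took 53.3% of control and 12.2% of Isl1CKO UMIs. By CPM the median of all genes compared was itself 0.58 log2 units higher in Isl1CKO. The labels do not say which part of the gene is floxed, so these 3′ tags check neither the deletion nor the label.

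Proteins bound for secretion fold in the ER, where chaperones, lectins and disulfide isomerases act on them and where misfolded chains are passed back to the cytosol for ER-associated degradation (ERAD). When unfolded protein builds up, the sensors IRE1 (Ern1), PERK (Eif2ak3) and ATF6 (Atf6) start the unfolded protein response. IRE1 splices the Xbp1 messenger RNA, PERK slows translation and favours production of ATF4, and cleaved ATF6 moves to the nucleus. Chaperone and ERAD genes are classical targets of XBP1 and ATF6, and Ddit3 (CHOP), Trib3 and Ppp1r15a (GADD34) lie downstream of ATF4. Beta cells are known for a heavy folding load because of proinsulin. Counts of 3′ tags do not show Xbp1 splicing or any protein, so the activity of the sensors was not measured.

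The promoters of several members share a short element that bears on how the group is regulated, the ER stress response element (ERSE), spelled CCAAT, then 9 bases of any kind, then CCACG. RefSeq promoters on GRCm38.p6, from 250 bases before to 50 bases after the start site, were found for 29 of the 33 members. Atf6, Hyou1, Manf and Derl1 were not matched. Searched on both strands, the exact ERSE occurred in 9 members (Hspa5, Hsp90b1, Dnajc3, Calr, Canx, Pdia6, Creld2, Syvn1 and Derl3) and in 0.119% of all 32851 promoters. The related ERSE-II, spelled ATTGG, 1 base of any kind, then CCACG, occurred in Dnajb11 and Herpud1 and in 0.0365% of all promoters. Both contain the CCAAT box, which alone occurred in 23 members and 37.4% of all promoters. The C/EBP-ATF element TTGCATCA was found in Herpud1 alone among the members and in 0.895% of promoters. The XBP1-type core TGACGTGG was in 0 members and in 0.676% of promoters. The ERSE of members that the results turn on, with 5 bases on each side, and the ERSE-II of Herpud1 are shown 5′ to 3′ on the gene's strand, with the fixed letters of the element in capitals; where the element lies on the opposite strand it reads CGTGG before ATTGG.
Hspa5, chr2:34772020-34772048, plus strand: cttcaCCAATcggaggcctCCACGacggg
Hsp90b1, chr10:86705633-86705661, minus strand: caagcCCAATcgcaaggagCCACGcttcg
Dnajc3, chr14:118937822-118937850, plus strand: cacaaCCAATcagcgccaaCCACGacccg
Pdia6, chr12:17266486-17266514, plus strand: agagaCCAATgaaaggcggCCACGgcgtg
Calr, chr8:84847070-84847098, minus strand: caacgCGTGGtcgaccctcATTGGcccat
Creld2, chr15:88819515-88819543, plus strand: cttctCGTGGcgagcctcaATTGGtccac
Derl3, chr10:75893237-75893265, plus strand: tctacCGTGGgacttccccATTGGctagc
Herpud1, chr8:94386372-94386392, plus strand: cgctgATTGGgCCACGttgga
Each of these 8 sites lies upstream of its RefSeq start site. Between the element of Hspa5 and its start site lie 46 bases, and the element falls inside the longer GENCODE M21 gene model, which begins at position 34771970 of chromosome 2. Hsp90b1 holds a second ERSE nearer its start site. In GENCODE M21, Sdf2l1 lies on chromosome 16 from 17130138 to 17132383, Creld2 on chromosome 15 from 88819646 to 88826683, Pdia6 on chromosome 12 from 17266545 to 17284770 and Derl3 on chromosome 10 from 75893413 to 75895941.

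Sdf2l1, one of the members that differed most between classes of cells, held no exact ERSE, and its 250 upstream bases are shown beside those of Creld2, which held one. Capitals mark each CCAAT box on either strand and, in Creld2, the CCACG of its ERSE, which reads CGTGG on this strand.
Sdf2l1, chr16:17132384-17132633, minus strand: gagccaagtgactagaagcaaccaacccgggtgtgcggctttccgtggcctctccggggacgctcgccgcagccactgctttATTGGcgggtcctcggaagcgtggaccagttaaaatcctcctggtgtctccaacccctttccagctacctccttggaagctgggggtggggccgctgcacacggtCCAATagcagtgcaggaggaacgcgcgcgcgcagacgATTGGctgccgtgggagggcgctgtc
Creld2, chr15:88819396-88819645, plus strand: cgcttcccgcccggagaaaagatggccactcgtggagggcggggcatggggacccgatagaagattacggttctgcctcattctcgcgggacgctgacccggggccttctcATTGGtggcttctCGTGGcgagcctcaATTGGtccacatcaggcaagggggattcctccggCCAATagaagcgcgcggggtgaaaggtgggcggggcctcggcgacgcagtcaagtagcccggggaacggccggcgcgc
Both stretches hold 3 CCAAT boxes. A match describes these letters and is not evidence of a bound site.

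Of the control barcodes, 2504 held at least 6825 UMIs and were taken as cells (72548173 UMIs). All 3020 Isl1CKO barcodes were used (78068592 UMIs), since that table had been filtered before deposit and its lowest barcode held 4882 UMIs. Median depth was 22638.5 and 24906.5 UMIs and 4126.5 and 4779 genes per cell, and 4 barcode sequences occurred in both libraries. Islet hormone transcripts made up 53.3% of control and 12.2% of Isl1CKO UMIs, which shifts the CPM of every other gene. For that reason ratios are given as log2 CPM ratios minus the median ratio of all genes compared, called relative log2 ratios here, and a gene counts as higher or lower when it lies at least 2-fold past that median. The ratios are also given by CPM alone and with hormones left out of the totals, both with no median subtracted, so that each of these scales shifts every gene alike. Genes were compared when they had at least 50 UMIs in the sum with the higher CPM. Cells with Xist UMIs and no Y-linked UMI were 18.1% of control and 32.7% of Isl1CKO cells, and cells with at least 2 UMIs of cell-cycle markers, called cycling here, 8.79% and 12.4%.

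Cells were placed in classes by transcripts that are not members. Insulin-high cells had Ins1 and Ins2 at 20% or more of their UMIs (898 control and 383 Isl1CKO cells). Glucagon-high cells had Gcg at 10% or more (617 control cells) and somatostatin-high cells had Sst at 5% or more (539 control cells). The Isl1CKO library held 2 and 6 such cells, too few to describe. In their place 2 classes were used in that library, Ttr-high cells with the transthyretin gene at 5% or more (1445 cells) and Fev-positive cells with at least 3 UMIs of the progenitor-associated factor Fev (2035 cells). A cell may be in several classes: 1031 Isl1CKO cells were both Ttr-high and Fev-positive, 145 both insulin-high and Fev-positive and 6 both insulin-high and Ttr-high. In no class were 465 control and 327 Isl1CKO cells. The Ttr-high class is named by its gate only. Of the alpha-cell markers, its cells held the factors Irx1 at 252 CPM and Irx2 at 197 CPM, against 152 and 136 CPM in control glucagon-high cells, but Gcg was at 2030 against 279789 CPM.

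The members together made up 0.588% of all control UMIs and 1.24% of Isl1CKO UMIs. Outside the hormones the shares were 1.26% and 1.41%. By class the share of non-hormone UMIs was 1.79% in control insulin-high, 0.836% in control glucagon-high and 1.03% in control somatostatin-high cells. It was 1.37% in Isl1CKO insulin-high, 1.60% in Ttr-high and 1.45% in Fev-positive cells. The order of the classes thus put control insulin-high cells first and control glucagon-high cells last, with the Isl1CKO classes between them. Hspa5, which encodes the chaperone BiP, followed that order at the ends, with 2657 CPM of non-hormone UMIs (hormones left out of the total, called non-hormone CPM here) in control insulin-high and 1097 in control glucagon-high cells, and 2016, 2204 and 2068 in Isl1CKO insulin-high, Ttr-high and Fev-positive cells. Hsp90b1, the ER member of the Hsp90 family (GRP94), was instead highest in Ttr-high cells at 3502 non-hormone CPM, against 2555 in control insulin-high and 1510 in control glucagon-high cells.

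**Figure D1:**
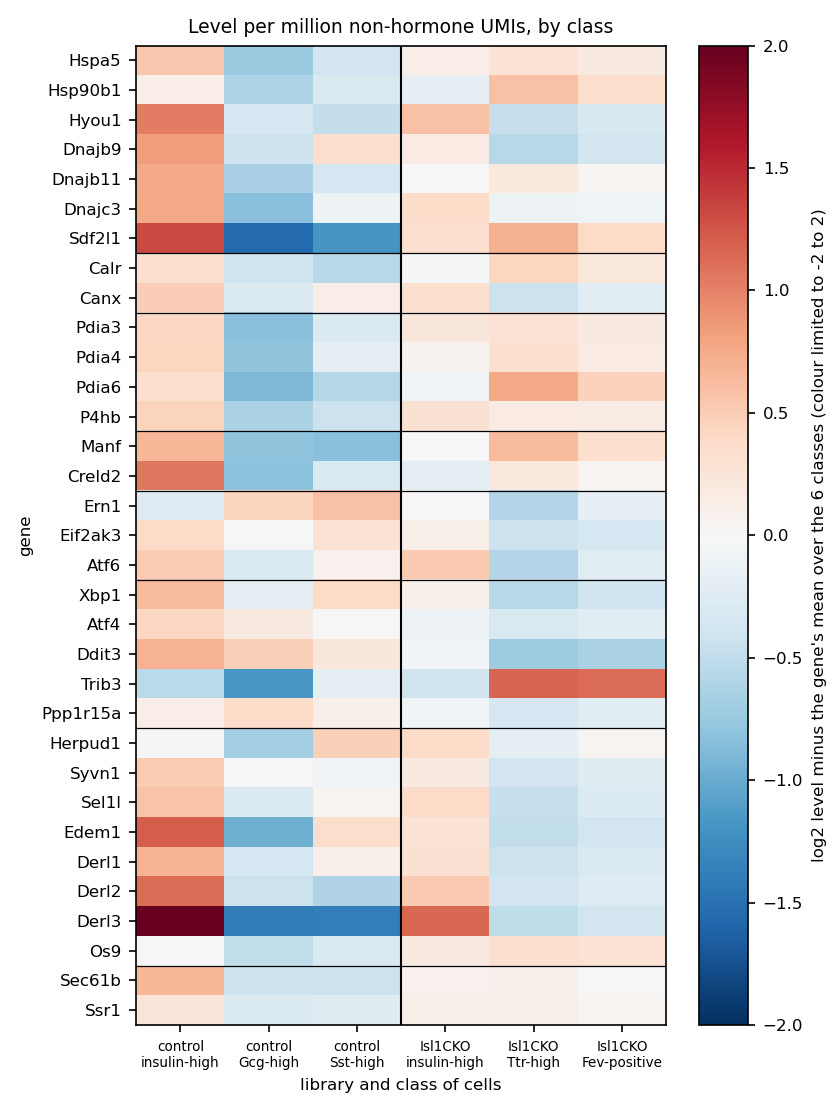
Heat map of the 33 members (rows, grouped by role) in 6 classes of cells (columns), as the log2 of non-hormone CPM minus each gene's mean over the classes, with colours limited to the range from -2 to 2. Most folding genes are red in control insulin-high cells and blue in control glucagon-high cells, and Hsp90b1, Pdia6, Manf and Sdf2l1 are red in Isl1CKO Ttr-high cells.

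Within the control library, insulin-high cells carried more folding transcripts than glucagon-high cells relative to other genes. Sdf2l1, a component of the BiP chaperone complex, was at 170 against 46.1 CPM (relative log2 ratio 2.97, 2.85 to 3.09). Creld2, a secreted disulfide isomerase-like stress protein, was at 68.6 against 38.5 CPM (1.92). Derl3, a derlin of the ERAD channel, was counted 345 times in insulin-high and 14 times in glucagon-high cells (4.03, 3.26 to 4.91). In all, 16 of the 32 members compared were at least 2-fold higher and 0 lower, where 8.79% of all 10812 genes were higher and 9.68% lower. The 891 and 610 cells used met only 1 of the 2 rules.

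By role, 6 of 7 chaperones and co-chaperones were higher, among them Hspa5 at 824 against 733 CPM (1.25) and Dnajc3, the co-chaperone p58IPK, at 225 against 157 CPM (1.60). All 4 disulfide isomerases were higher, from P4hb at 1.04 to Pdia3 at 1.23. Both secreted stress proteins were higher, with Manf at 429 against 332 CPM (1.45), and neither lectin was, with Calr at 0.66 and Canx at 0.74. Of 8 ERAD genes 3 were higher, Derl3, the mannosidase-like lectin Edem1 (10.0 against 4.69 CPM, 2.18) and Derl2 (1.53). The translocon subunit Sec61b was higher at 1.03, and its partner Ssr1 was at 0.48. None of the sensors or transcription factors passed, and the sensor Ern1 lay the other way at 10.3 against 37.1 CPM (-0.77). The median gene was 1.08 log2 units lower in insulin-high cells, in which hormones took 68.9% of UMIs against 32.4%. By CPM alone only Sdf2l1, Edem1 and Derl3 were at least 2-fold higher (3.34% of genes) and Ern1 and Ppp1r15a lower (55.9% of genes), and P4hb and Sec61b turned to -0.04 and -0.05. With hormones left out of the totals 17 members were higher, beside 9.29% of genes.

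Against control somatostatin-high cells, insulin-high cells had 8 of 32 members at least 2-fold higher and 0 lower, where 7.18% of 9936 genes were higher and 9.3% lower. These were Derl3 (347 against 10 UMIs, 3.94), Sdf2l1 (170 against 67.5 CPM, 2.53), Derl2 (1.76), Manf (1.54), Hyou1 (1.53), Creld2 (1.40), Dnajb11 (1.14) and Sec61b (1.13). Hyou1 is the large Hsp70 relative that serves BiP as an exchange factor, and Dnajb11 is one of its J-domain partners. On the CPM scale only Sdf2l1 and Derl3 lay above 2-fold (2.79% of genes), Ern1, Eif2ak3, Ppp1r15a and Herpud1 were lower (67.2% of genes), and Dnajb11 and Sec61b turned to -0.06 and -0.07. Herpud1, an ERAD scaffold protein, was the ERAD member that stood higher in somatostatin-high cells, at 191 against 60.5 CPM (-0.46 for insulin-high cells), and at 275 against 195 non-hormone CPM.

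Summed over all cells of each library, most members lay close to the median gene. The genotypes differed at least 2-fold in 2 of the 33. Trib3, a pseudokinase downstream of ATF4 and CHOP, was counted 136 times in Isl1CKO and 25 times in control cells (relative log2 ratio 1.76, 1.14 to 2.44). Derl3 was counted 251 and 378 times (-1.28, -1.51 to -1.04). Among all 14420 genes compared 5.21% were higher and 6.82% lower in Isl1CKO. The other folding genes with the widest differences were Pdia6 (857 against 295 CPM, 0.96) and Hsp90b1 (2514 against 936 CPM, 0.85). Of the 15 folding members 12 lay above the median gene. By CPM alone, where the median gene stood at 0.58, 15 lay above 0, and with hormones left out, where it stood at -0.33, 9 did. On the CPM scale 12 members were at least 2-fold higher and 0 lower, beside 16.9% and 3.52% of all genes. These sums mix cell classes in different proportions, insulin-high cells being 35.9% of control and 12.7% of Isl1CKO cells, so less RNA per cell and fewer cells of a class cannot be told apart.

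Of the 3 comparisons between the libraries, the one of Isl1CKO Ttr-high with control glucagon-high cells had the most members past 2-fold. Here 15 of 33 members were at least 2-fold higher in the Isl1CKO class and 0 lower, where 8.66% of 11977 genes were higher and 7.21% lower. Their median was 0.86, and the median gene was 0.17 log2 units higher before it was subtracted. The members that were higher were mostly those that fold proteins, 12 of the 15 folding members against 3 of the other 18.

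Of the chaperones and co-chaperones 5 of 7 were higher. Sdf2l1 was at 356 CPM in Ttr-high and 50.4 CPM in glucagon-high cells (2.65, 2.54 to 2.76). Hsp90b1 was at 3461 against 1021 CPM (1.59) and Hspa5 at 2178 against 741 CPM (1.38). Dnajb11 stood at 1.20 and Dnajc3 at 1.10. Hyou1 and Dnajb9, a co-chaperone that restrains IRE1, were at 0.24 and 0.22, or -0.13 and -0.15 with hormones left out of the totals, a scale on which the median gene stood at -0.39.

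All 4 disulfide isomerases were higher. Pdia6, which also acts on the sensors, was at 1221 against 265 CPM (2.03, 1.98 to 2.08). Pdia3, the partner of the lectins, was at 1888 against 589 CPM (1.51), Pdia4 at 268 against 84.2 CPM (1.49) and P4hb at 488 against 193 CPM (1.16). Of the lectins Calr was higher at 889 against 343 CPM (1.20), and Canx, its membrane-bound relative, was at 338 against 255 CPM (0.23, and -0.14 with hormones left out). Manf, a secreted neurotrophic factor retained by BiP, was at 1331 against 337 CPM (1.81) and Creld2 at 122 against 40.9 CPM (1.41). Manf shares exon sequence on its strand with Rbm15b, so its count is uncertain.

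Most genes that sense and transmit the response lay near the median gene. Ern1 was at 26.0 against 36.4 CPM (-0.66, -0.81 to -0.50), Eif2ak3 at 13.1 against 12.0 CPM (-0.04) and Atf6 at 38.5 against 31.8 CPM (0.10). Xbp1, the transcription factor that IRE1 activates by splicing, was at 119 against 105 CPM (0.00), and Atf4 at 70.9 against 68.1 CPM (-0.12). The pro-apoptotic factor Ddit3 was at 10.8 against 16.9 CPM (-0.82, -1.05 to -0.59) and Ppp1r15a, which returns translation to normal, at 25.6 against 28.6 CPM (-0.33). In GENCODE M21 Ddit3 shares exon sequence on its strand with a second gene of that name, so its count is uncertain. With hormones left out Ern1 and Ddit3 stood at -1.03 and -1.20, on a scale where the median gene stood at -0.39 and 17.2% of all genes were at least 2-fold lower. Trib3 alone among the transcription factors and effectors was higher, on 96 against 4 UMIs (2.73, 1.33 to 4.63).

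Of 8 ERAD genes 2 were higher, the lectin Os9 at 266 against 104 CPM (1.18) and Derl3 on 139 against 16 UMIs (1.26, 0.51 to 2.11). Edem1 and Herpud1 stood at 0.86 each, Derl2 at 0.44, Derl1 at 0.30, the adaptor Sel1l at 0.19 and its ubiquitin ligase partner Syvn1 at -0.01. The translocon genes Sec61b and Ssr1 were at 0.89 and 0.77. Of the 9 members with an exact ERSE, shown above, 7 were higher, and of the 20 with a promoter and no exact ERSE 7 were. Canx and Syvn1 held the element and were not.

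**Figure D2:**
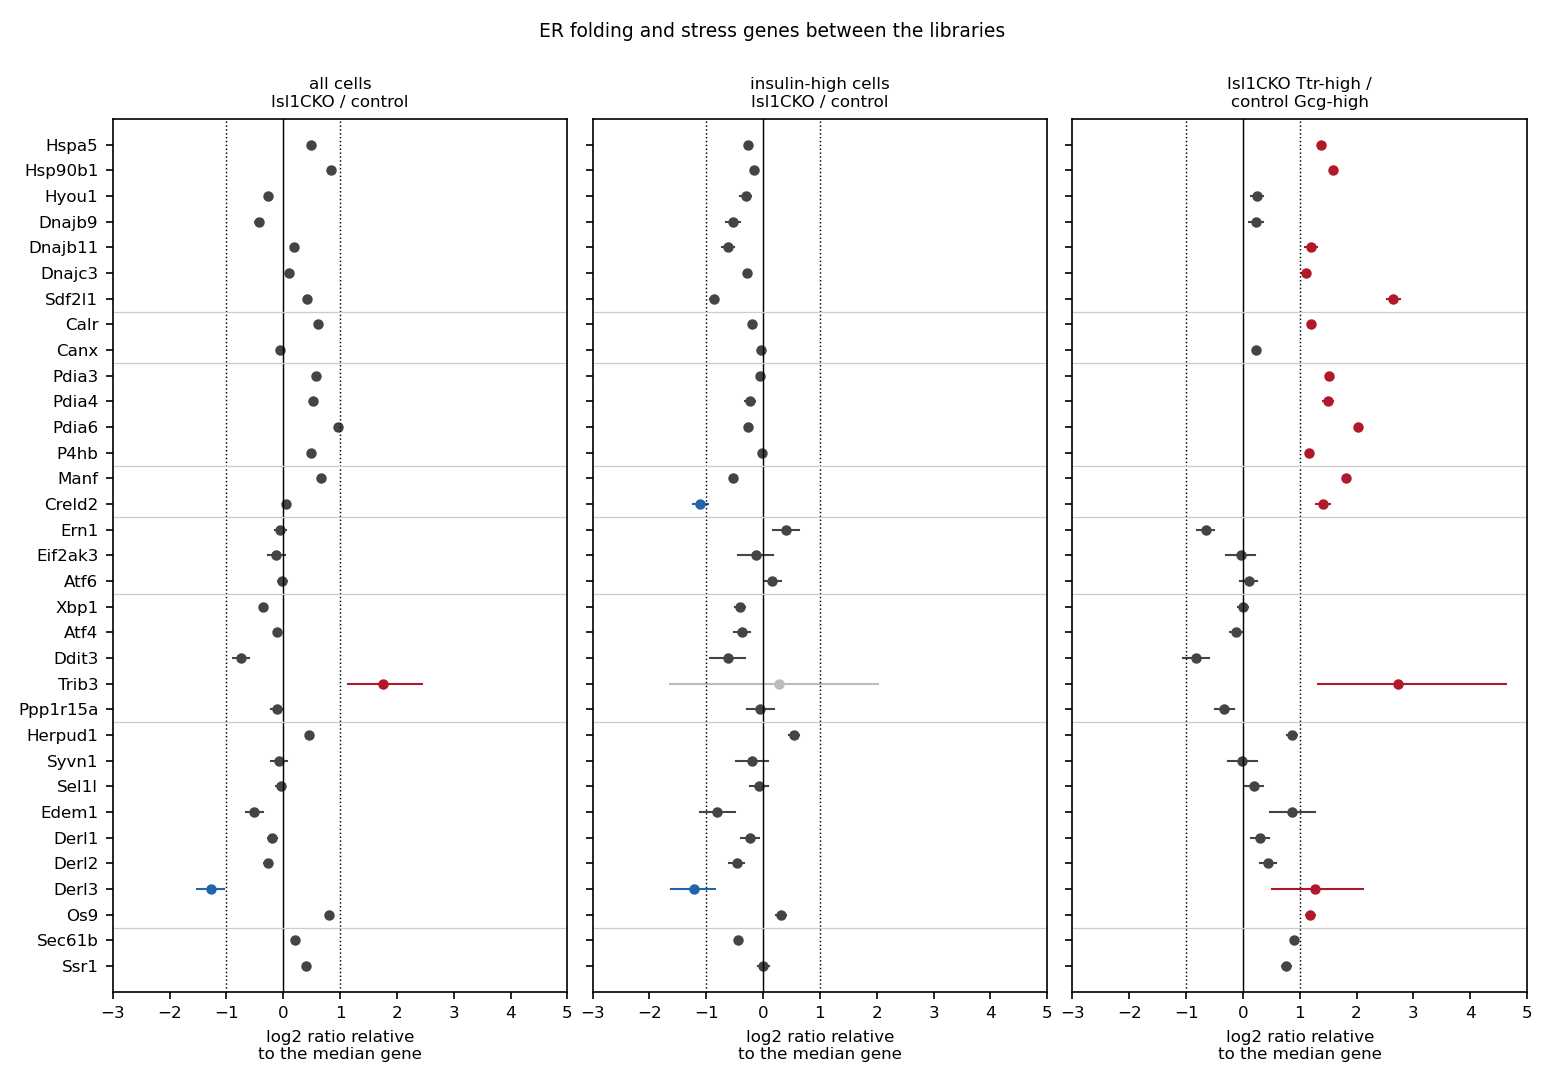
Relative log2 ratios (x axis, 0 is the median gene) of the 33 members (rows, by role) in 3 comparisons of Isl1CKO with control, with 95% counting intervals; dotted lines mark 2-fold, red and blue points lie at least 2-fold higher or lower, and grey points had too few UMIs to be compared. In the right panel 15 of 33 members are red, beside 8.66% of all genes higher there. In the middle panel Creld2 and Derl3 are blue, 2 of 32 members compared, beside 4.73% of all genes lower.

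These classes also differ in other ways. Cycling cells were 21.8% of Ttr-high and 13.6% of glucagon-high cells, and cells with Xist and no Y-linked UMI 39.1% and 20.7%. The same 15 members were higher with cycling cells left out (8.64% of genes) and in cells with Y-linked UMIs alone (7.42% of genes). The 10 acinar markers summed to 68.5 and 116 CPM, the 6 mesenchymal markers to 2.03 and 35.3 CPM and the 4 plasma and B cell markers to 0.777 and 0.367 CPM. The 4 ductal markers summed to 543 and 248 CPM, of which Krt8 gave 384 and 209, Spp1 154 and 33.4, Krt19 2.65 and 1.10 and Sox9 3.41 and 4.18. The 4 endocrine progenitor markers summed to 339 and 99.9 CPM, with Fev at 192 and 45.8, Cck at 65.1 and 2.93 and Sox4 at 79.7 and 43.5. Neurog3 went the other way, at 2.97 and 7.70 CPM. The 3 enterochromaffin markers summed to 10249 and 1451 CPM, nearly all from Chgb, and the granule gene Chga was at 29711 and 6718 CPM. The part of such cells or transcripts was not tested. With hormones left out of the totals 9 members were higher (5.21% of genes), namely Hspa5, Hsp90b1, Sdf2l1, Pdia3, Pdia4, Pdia6, Manf, Creld2 and Trib3, and 2 lower (17.2% of genes). With each cell thinned to 4500 UMIs 10 were higher, beside 6.77% of genes, and Ddit3 was lower, beside 6.42%.

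The gates of the 2 classes differ, so control cells that pass the Ttr gate were also taken, which was decided on after the values were known. There were 113 of them, and 101 were also glucagon-high. Against these, 11 members were at least 2-fold higher in Isl1CKO Ttr-high cells, beside 8.29% of 10246 genes. Sdf2l1 was at 356 against 61.9 CPM (2.04), Pdia6 at 1221 against 298 CPM (1.55) and Hspa5 at 2178 against 713 CPM (1.13). Hsp90b1 was at 1.09, Pdia4 at 1.31, Creld2 at 1.21, Manf and Pdia3 at 1.16 each and Dnajc3 at 1.05. Trib3 and Derl3 rested on 1 control UMI each. Calr, P4hb, Os9 and Dnajb11 now lay below 2-fold, between 0.82 and 0.93.

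In insulin-high cells the folding genes lay slightly lower in Isl1CKO than in control, where all 15 folding members were below the median gene. On the CPM scale 10 of the 15 were above 0, since the median gene was 0.41 log2 units higher in Isl1CKO, and with hormones left out all 15 were below. Of the 32 members compared, 2 were at least 2-fold lower and 0 higher, where 4.73% of 10080 genes were lower and 4.97% higher. Creld2 was at 42.8 CPM in Isl1CKO and 69.1 CPM in control insulin-high cells (relative log2 ratio -1.10, -1.23 to -0.98). Derl3 was counted 68 and 347 times (-1.22, -1.62 to -0.84). Neither passed on the CPM scale (2.54% of genes were lower there), and Derl3 had too few UMIs to be compared after thinning.

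The other members lay nearer the median gene. Sdf2l1 was at 125 against 170 CPM (-0.86), Edem1 at 7.63 against 10.0 CPM (-0.80), Dnajb11 at -0.62, Manf at -0.53 and Dnajb9 at -0.53. The most abundant folding genes were near the median gene, with Hspa5 at 916 against 826 CPM (-0.26), Hsp90b1 at 941 against 794 CPM (-0.17) and Pdia3 at 829 against 647 CPM (-0.06). Above the median gene lay Herpud1 at 117 against 60.5 CPM (0.54, 0.45 to 0.63), Ern1 at 18.1 against 10.3 CPM (0.40), Os9 (0.31) and Atf6 (0.16), and Ssr1 was at 0.00. Isl1CKO insulin-high cells were shallower, with a median of 38693 against 48339.5 UMIs. Cells with Xist and no Y-linked UMI were 57.7% of them against 20.9%. In cells with Y-linked UMIs alone 3 members were lower, Sdf2l1, Creld2 and Ddit3, beside 6.69% of genes. The 4 erythroid genes summed to 391 CPM in control and 3.20 CPM in Isl1CKO insulin-high cells, and their part was not tested.

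Insulin-high cells of the libraries also differed in how much insulin they held, so the members were read in bins of insulin share, as non-hormone CPM. The bins of 20 to 40%, 40 to 60% and 60% or more held 40, 185 and 673 control cells and 112, 168 and 103 Isl1CKO cells. In control cells Creld2 went from 136 (110 to 167) to 189 and 239 (229 to 249) across the bins. In Isl1CKO cells it was 93.6, 96.1 and 92.2 (77.5 to 109), so the libraries lay furthest apart in the highest bin. Sdf2l1 went from 262 to 376 and 622 in control and from 230 to 241 and 408 in Isl1CKO cells. Derl3 went from 7.49 (2.43 to 17.5) to 20.1 and 29.3 in control and from 3.99 to 11.4 and 17.2 in Isl1CKO cells, on 5 and 9 UMIs in the lowest bins. Derl3 and Sdf2l1 thus stood higher in cells with more insulin in both libraries, and Creld2 did so in control cells.

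Hspa5 went from 2287 to 2468 and 2742 across the bins in control cells and from 2048 to 2030 and 1944 (1874 to 2016) in Isl1CKO cells. The 15 folding members together made up 1.13%, 1.28% and 1.47% of non-hormone UMIs in control and 1.08%, 1.07% and 1.12% in Isl1CKO cells. Counted per cell, they came to 189, 210 and 210 UMIs in control and 218, 184 and 164 UMIs in Isl1CKO cells. Median depth went from 27928.5 to 50357 UMIs across the control bins and from 27758.5 to 45278 across the Isl1CKO bins, so the bins differ in depth in the same direction. The lowest control bin rests on 40 cells. These are descriptions across cells of 1 library each.

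**Figure D3:**
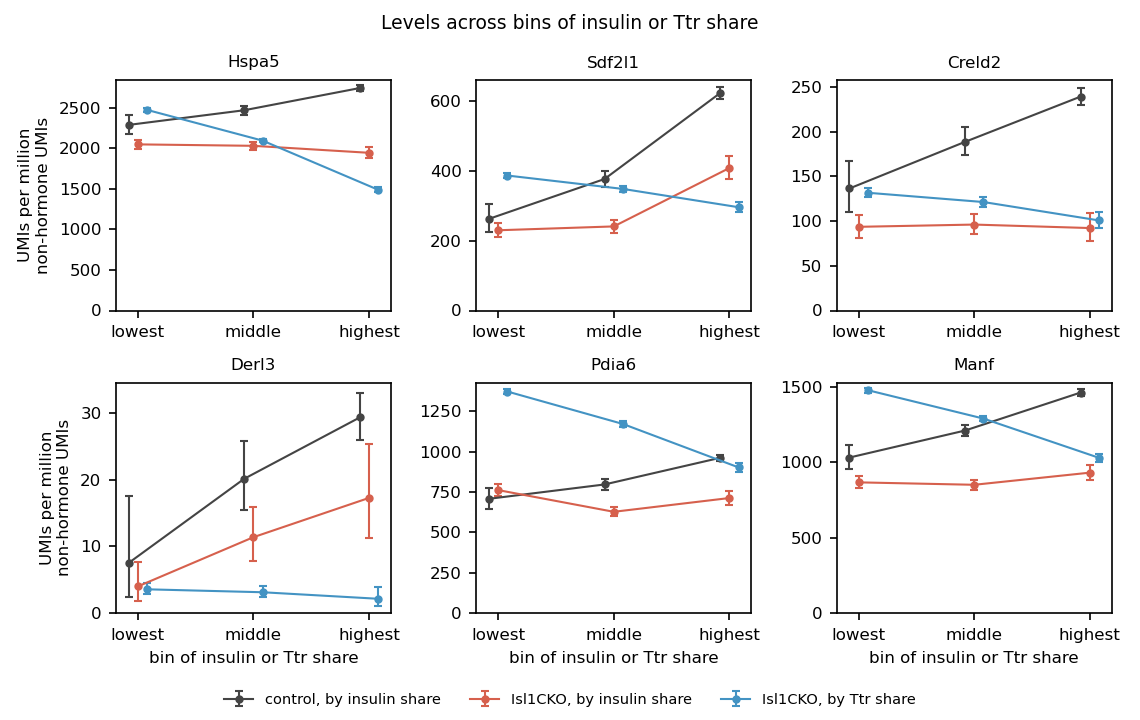
Level of 6 members (y axis, non-hormone CPM) in the lowest, middle and highest bin of insulin share (control and Isl1CKO insulin-high cells) or of Ttr share (Isl1CKO Ttr-high cells), with exact Poisson intervals. Creld2 climbs from 136 to 239 in control insulin-high cells and is near 94 in each Isl1CKO bin, and Pdia6 drops from 1372 to 902 across the Ttr bins.

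Within the Ttr-high class the folding genes were lower where Ttr was higher. In cells with Ttr at 5 to 10%, 10 to 15% and 15% or more (696, 575 and 174 cells), Hspa5 was at 2473, 2094 and 1488 non-hormone CPM. Pdia6 was at 1372, 1171 and 902, Sdf2l1 at 386, 348 and 296 and Manf at 1476, 1288 and 1028. The 15 folding members made up 1.47%, 1.29% and 0.989% of non-hormone UMIs. Part of this is arithmetic, because Ttr itself is in the total, and without Ttr the shares were 1.60%, 1.47% and 1.20%. Median depth hardly differed (29158.5, 29001 and 28646.5 UMIs), and cycling cells were 26.1%, 18.3% and 16.1% of the bins. In control glucagon-high cells the folding share went from 0.703% to 0.633% and 0.583% over Gcg bins of 10 to 20%, 20 to 30% and 30% or more. In control somatostatin-high cells it was 0.773%, 0.808% and 0.807% over Sst bins of 5 to 10%, 10 to 15% and 15% or more. Among these classes the folding share was higher with more hormone in control insulin-high cells and lower in control glucagon-high cells.

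Per cell, the share of the 15 folding members in non-hormone UMIs had a median of 1.29% in control insulin-high cells (quartiles 1.01 and 1.70%) and 0.580% in control glucagon-high cells (0.465 and 0.728%). It was 1.01% in Isl1CKO insulin-high cells (0.838 and 1.22%), 1.19% in Ttr-high cells (0.877 and 1.64%) and 0.914% in Fev-positive cells. The interquartile ranges of Ttr-high and glucagon-high cells did not overlap, and those of the insulin-high classes did. Control Ttr-high cells were at 0.574%, close to the glucagon-high cells with which they mostly coincide. The coefficient of variation was 45.4% in Ttr-high, 52.2% in Fev-positive, 40.2% in control insulin-high, 37.6% in control glucagon-high and 29.3% in Isl1CKO insulin-high cells.

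**Figure D4:**
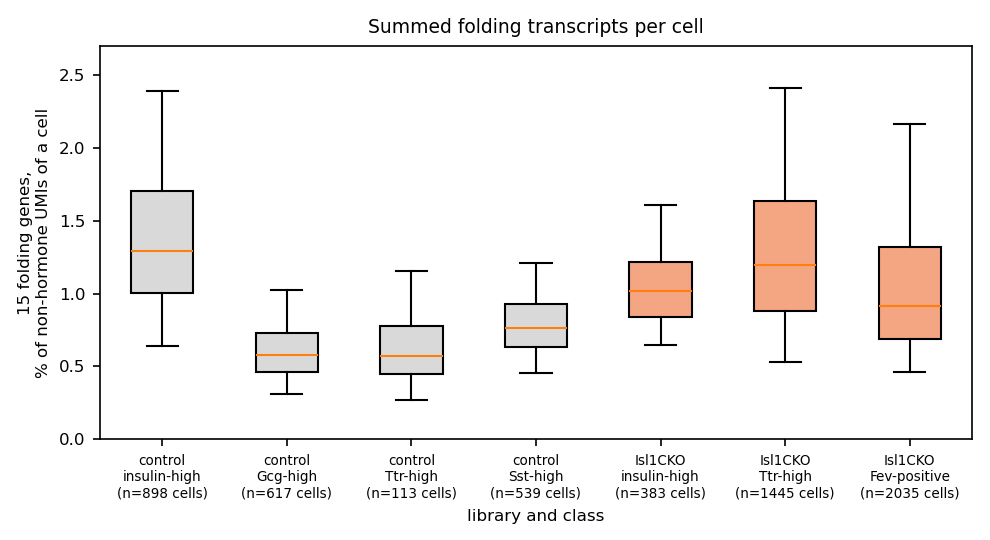
Summed share of the 15 folding members in the non-hormone UMIs of each cell (y axis, percent), by library and class; boxes span the quartiles with the median as a line, and whiskers reach the 5th and 95th percentiles. Isl1CKO Ttr-high cells (median 1.19%) sit above control glucagon-high cells (0.580%), and control insulin-high cells are highest at 1.29%.

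Across Ttr-high cells thinned to 4500 UMIs, abundant folding genes varied together with Hspa5. Pearson's r with Hspa5 was 0.55 for Hsp90b1, 0.51 for Manf, 0.49 for Calr and 0.44 for Pdia3 and Pdia6 (n = 1445 cells). It was 0.29 for Sdf2l1, 0.15 for Xbp1, 0.09 for Atf4 and 0.02 for Ddit3. Fev-positive cells (n = 2035), of which 1031 were also Ttr-high, had values of 0.47, 0.41 and 0.40 for Hsp90b1, Manf and Calr. In control glucagon-high cells (n = 617) the values for Hsp90b1, Manf and Calr were 0.20, 0.21 and 0.17, in control insulin-high cells (n = 898) 0.20, 0.27 and 0.17 and in Isl1CKO insulin-high cells (n = 383) 0.08, 0.10 and 0.06. Cells of a class share a library, and lower counts weaken r: Hsp90b1 had a mean of 15.3 UMIs per thinned Ttr-high cell and 3.58 per thinned control insulin-high cell. The 4500 UMIs include hormones, which took 1.18% of Ttr-high and 32.4% of control glucagon-high UMIs. They took 68.9% of control and 54.6% of Isl1CKO insulin-high UMIs. Non-hormone depth thus differed between these classes, and its part in r was not tested.

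Inside the Isl1CKO library, Ttr-high cells were set against cells of the other classes that met only 1 of the 2 rules. Relative to 1439 Ttr-high cells, 377 insulin-high cells had 1 of 33 members at least 2-fold higher (9.02% of 12409 genes were) and 4 lower. The 4 lower members are a share near the 12.6% of all genes that were lower. Derl3 was higher, on 64 against 135 UMIs (4.48 against 3.11 CPM, 1.34, 0.89 to 1.78). Pdia6 was lower at 295 against 1223 CPM (-1.23), Hsp90b1 at 903 against 3471 CPM (-1.13), Manf at 371 against 1331 CPM (-1.03) and Trib3 on 3 against 94 UMIs (-2.55, -4.86 to -0.96). Among the others Sdf2l1 was at 117 against 356 CPM (-0.78), Hspa5 at 891 against 2181 CPM (-0.47) and Atf6 at 38.5 against 38.6 CPM (0.81). The folding members were not uniform, with Hyou1 at 0.74 and Canx at 0.46, which were at -0.08 and -0.36 on the CPM scale. The median gene was 0.82 log2 units lower in insulin-high cells. By CPM alone 15 members were lower, beside 40% of genes. With hormones left out, where the median gene stood at 0.29, Hyou1, Atf6 and Derl3 were higher (16.3% of genes) and Trib3 alone lower (10.6% of genes).

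Fev-positive cells outside the Ttr gate (1004 cells) were set against Ttr-high cells below that Fev count (414 cells). At least 2-fold lower were 5 of 32 members and higher 0, where 7.24% of 11499 genes were lower and 8.94% higher. Sdf2l1 was at 112 against 325 CPM (-1.74), Pdia6 at 432 against 1141 CPM (-1.60), Manf at 434 against 1150 CPM (-1.60), Hsp90b1 at 1487 against 3224 CPM (-1.31) and Calr at 420 against 829 CPM (-1.18). Hspa5 was at 1382 against 1937 CPM (-0.68), Ern1 at 44.7 against 28.3 CPM (0.46) and Atf6 at 57.0 against 35.7 CPM (0.48). With hormones left out Sdf2l1, Pdia6 and Manf were lower, beside 3.77% of genes. With both thresholds doubled, to Ttr at 10% and 6 Fev UMIs, 0 members were lower, beside 2.7% of genes. After thinning 7 members were lower, beside 5.93% of genes. Over the whole classes, overlap included, the erythroid genes summed to 368 CPM in Fev-positive and 14.4 CPM in Ttr-high cells, Ins2 was at 33649 and 3994 CPM and Chgb at 21148 and 10227 CPM, and their part in the result was not tested.

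**Figure D5:**
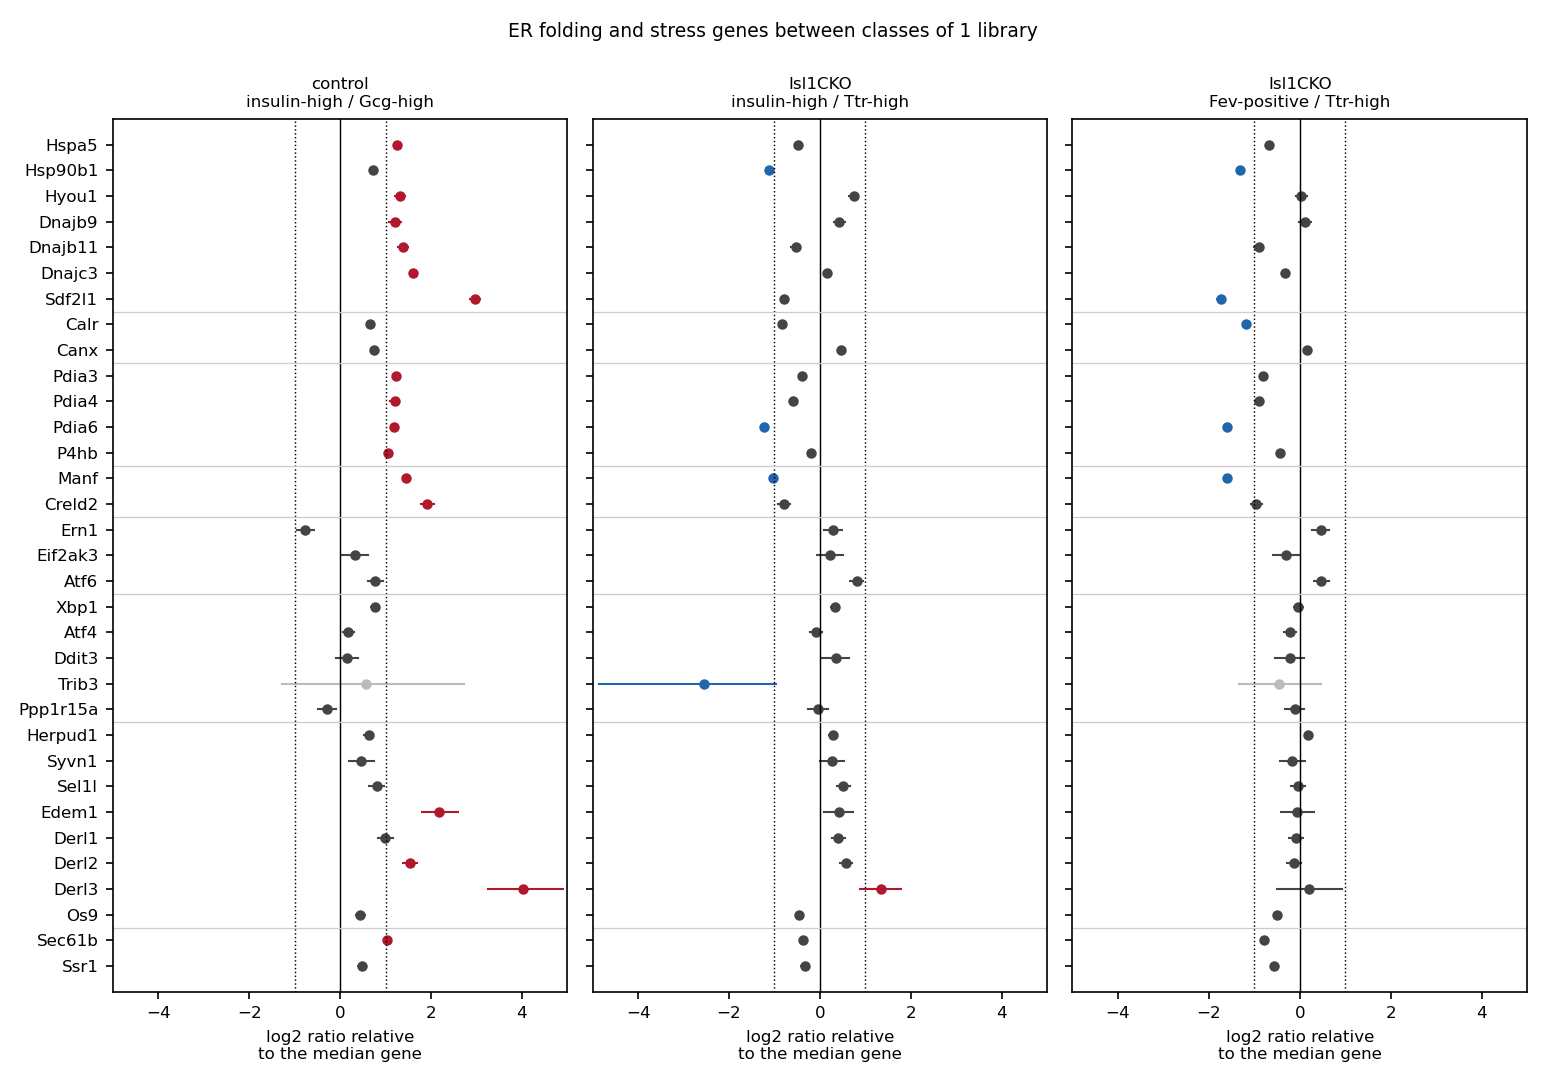
Relative log2 ratios (x axis, 0 is the median gene) of the 33 members (rows, by role) between classes of 1 library, with 95% counting intervals, dotted lines at 2-fold and the same colours as in the plot of genotype ratios. The left panel shows 16 of 32 members higher in control insulin-high than in glucagon-high cells, beside 8.79% of all genes. The other panels show Hsp90b1, Pdia6 and Manf lower in Isl1CKO insulin-high and Fev-positive cells than in Ttr-high cells. For insulin-high cells, the 4 of 33 members that were lower are a share near the 12.6% of all genes. For Fev-positive cells 5 of 32 members were lower, beside 7.24% of all genes.

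Ddit3 and Trib3, the effectors tied to prolonged ER stress, were counted per cell. After thinning to 4500 UMIs, Ddit3 was seen in 3.94% of Ttr-high cells (3.00 to 5.08) and 7.62% of control glucagon-high cells (5.65 to 10.0), and unthinned in 23.5% and 27.7%. It was seen in 2.09% of Isl1CKO and 3.34% of control insulin-high cells. Trib3 was seen in 0.969% of thinned Ttr-high cells and in 0 of 617 glucagon-high cells, which allows a share of up to 0.486% of cells with a UMI by the floor of 3 cells (0.596% by the exact interval), and unthinned in 5.67% and 0.648%. Atf4 was seen in 26.9% and 24.5% and Ppp1r15a in 10.2% and 13.0% of thinned Ttr-high and glucagon-high cells. Median depth before thinning was 29017 and 21125 UMIs. Thinning set the total with hormones included, and hormones took 1.18% of Ttr-high and 32.4% of glucagon-high UMIs. They took 54.6% of Isl1CKO and 68.9% of control insulin-high UMIs. Thinned cells of these classes thus still differed in non-hormone depth. Sdf2l1 was seen in 69.6% of thinned Ttr-high cells and 15.9% of glucagon-high cells, and in 3.92% of 51 control cells and 8.33% of 24 Isl1CKO cells with mesenchymal markers (median depth 8267 and 8085 UMIs). Unthinned the shares were 97.2% of Ttr-high and 51.9% of glucagon-high cells. In the control and Isl1CKO cells with mesenchymal markers they were 13.7% and 8.33%.

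Free RNA in droplets can add to these values. In control barcodes under 100 UMIs Sdf2l1 was at 276 non-hormone CPM, against 264 in all control cells and 74.5 in glucagon-high cells. Manf was at 791 against 832, Sec61b at 1493 against 1453 and Ddit3 at 30.9 against 25.4, while Hspa5 was at 722 against 1789 and Hsp90b1 at 645 against 2002. Low values of Sdf2l1 and Ddit3 in control cells thus lie at or below the level of near-empty droplets. Barcodes of that kind were not analysed here for Isl1CKO.

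Genes of the same organelle outside the 33 were followed in 6 lists with 115 genes, of which 112 were found by symbol. Between Ttr-high and glucagon-high cells 30 of 105 compared were at least 2-fold higher and 0 lower, beside 8.66% and 7.21% of all genes. Of the oxidative folding and foldase list 11 of 21 were higher, against the same background, and the list's median was 1.05, against 0.86 for the members. Examples are Ppib, a proline isomerase, at 1204 against 214 CPM (2.32), Fkbp11 at 353 against 63.7 CPM (2.30), Pdia5 at 139 against 27.7 CPM (2.16) and the translocon-associated Ssr2 at 2122 against 448 CPM (2.07). In the PERK-ATF4 list 5 of 23 were higher, led by Nupr1 (9.85 against 0.807 CPM, 3.44) and Cebpb (36.9 against 5.50 CPM, 2.57), and the median was 0.20.

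Between insulin-high cells of the libraries 2 of 98 genes of the lists were higher in Isl1CKO, Cebpb (19.1 against 2.69 CPM, 2.41) and Vldlr (38.8 against 13.6 CPM, 1.10), and 1 was lower, beside 4.97% and 4.73% of all genes. The lower gene was Ero1lb, the beta-cell oxidase that recharges disulfide isomerases, at 142 against 226 CPM (-1.08). Over all cells 11 of 107 were higher and 1 lower, beside 5.21% and 6.82% of all genes. In control insulin-high cells 18 of 101 were higher than in glucagon-high cells and 6 lower, beside 8.79% and 9.68% of all genes, led by Creb3l1 (9.18 against 2.19 CPM, 3.15) and Ero1lb (227 against 54.7 CPM, 3.13), with the serine synthesis gene Psat1 lower (0.732 against 11.0 CPM, -2.83). Against somatostatin-high cells 8 of 97 were higher, a share near the 7.18% of all genes, and 0 lower, beside 9.3%. Within Isl1CKO, 7 of 106 were higher and 16 lower in insulin-high than in Ttr-high cells, near the 9.02% and 12.6% of all genes. In Fev-positive against Ttr-high cells 4 of 102 were higher and 24 lower, beside 8.94% and 7.24% of all genes. Prdx4, an ER peroxidase, was at 45.5 CPM in insulin-high and 457 CPM in Ttr-high cells (-2.51).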

How the data were processed

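Both libraries were made with 10x Genomics 3′ chemistry from sorted cells, per the labels' protocols, and the authors deposited counts: UMIs per gene and barcode, not normalized. Per the submitters' processing notes the genome was GRCm38.p6 and the tools were STAR 2.7.3a with STARsolo, and Seurat 4.3.0.1; no annotation release is stated in the sources used here. The control table lists 6794880 barcodes and was cut here at 6825 UMIs, 10 times below the 99th percentile of its 3000 deepest barcodes. The Isl1CKO table had been filtered before deposit by a rule that those sources do not state, so the libraries entered by different filters.

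UMIs were summed over the cells of a class and scaled to CPM with Python 3.11.15, numpy 2.4.6, scipy 1.17.1 and pandas 2.3.3. Intervals on ratios are exact conditional binomial, those on levels exact Poisson and those on shares Clopper-Pearson. The floor for a count of 0 is 3 UMIs or cells. Cells meeting both rules of a pair within 1 library were left out of that comparison. No doublet caller was run, and cells with several hormones were left out as an alternative. Other alternatives were the scaling, the minimum count, thinning, stricter cell filters and halved or doubled gates. The comparison was checked on simulated counts. Genes were named when they were members, or when they led the other ER lists by size of the ratio, at most 6 per comparison, and Prdx4 was named after its values were seen. The members and lists were chosen with earlier results of these data known. In GENCODE M21, 4 members share exon sequence on their strand with another gene. These are Manf with Rbm15b, Hsp90b1 with Gm15344 and Gm25745, Pdia4 with Mir704 and Ddit3 with a second gene of that name. Reads of such genes may have been split or lost.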

Additional observations from a re-analysis of the deposited data

Results flagged for a closer look

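For 12 members the genotype ratio in insulin-high cells and the ratio of Isl1CKO Ttr-high to control glucagon-high cells lay on opposite sides of the median gene with both counting intervals clear of 0, and with at least 1 of the 2 at least 2-fold away. The share of all genes that meet this rule is not given here, so the count of 12 is not read as particular to the members. The difference between the 2 relative log2 ratios was not tested, since each genotype is 1 library, and the second ratio compares cells chosen by different gates. Among chaperones and their partners the difference was 3.51 for Sdf2l1 (2.65 and -0.86), 1.82 for Dnajb11, 1.76 for Hsp90b1, 1.64 for Hspa5 and 1.38 for Dnajc3. It was 1.40 for the lectin Calr. Among disulfide isomerases it was 2.29 for Pdia6, 1.72 for Pdia4 and 1.56 for Pdia3. For the secreted proteins it was 2.51 for Creld2 (1.41 and -1.10) and 2.34 for Manf. Derl3 differed by 2.48, on 16 UMIs in glucagon-high cells. P4hb, at 1.16 and -0.01 (-0.07 to 0.04), is not among them because its second interval holds 0. By CPM alone Sdf2l1, Creld2, Manf, Dnajb11 and Derl3 were also below 0 in insulin-high cells (-0.45, -0.69, -0.11, -0.21 and -0.81), and the other 7 members were above 0.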

How the results depend on the processing

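No paired analysis was possible because each genotype is 1 pooled library. Of 222 counts of members recomputed under alternatives, 193 stayed within 1.5 times the value reported and 29 did not. Of the other values recomputed, which include ratios of single members, 2599 stayed, 938 moved and 4 reversed. The causes were not tested beyond what an alternative's construction shows. On the CPM scale 12 members were higher over all cells, beside 16.9% of all genes. In control insulin-high cells 3 were higher than in glucagon-high and 2 than in somatostatin-high cells, beside 3.34% and 2.79%. In Isl1CKO insulin-high against Ttr-high cells 0 were higher. Lower on that scale were 0 over all cells (3.52% of genes) and 0 in insulin-high cells between genotypes (2.54%). In the control pairs 2 and 4 were lower (55.9% and 67.2%), and 15 in Isl1CKO insulin-high against Ttr-high cells (40%). P4hb and Sec61b reversed there against glucagon-high cells (-0.038 and -0.052), as did Dnajb11 and Sec61b against somatostatin-high cells (-0.060 and -0.068). With hormones left out of the totals 2 were lower over all cells. In Ttr-high against glucagon-high cells 9 were higher and 2 lower (5.21% and 17.2% of genes). In Isl1CKO insulin-high against Ttr-high cells 3 were higher and 1 lower (16.3% and 10.6%), and in Fev-positive against Ttr-high cells 3 were lower (3.77%). A count with no share of all genes beside it here shows only how that count moved with the setting. By mean CPM per cell 0 were lower over all cells. After thinning, where fewer genes reached the minimum count, 0 were higher and 0 lower over all cells, 1 was lower in insulin-high cells between genotypes, 1 lower in Ttr-high against glucagon-high cells, 1 lower in the somatostatin pair and 0 higher and 2 lower in Isl1CKO insulin-high against Ttr-high cells. That last comparison had 0 higher at a minimum of 100 UMIs and 2 lower without cells of several hormones, with doubled gates or with cells of exactly 1 class. Doubled gates gave 1 lower in insulin-high cells between genotypes and 0 lower in Fev-positive against Ttr-high cells. Members with few UMIs, Trib3 and Derl3 above all, are limited by depth.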

Other observations

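Of the control barcodes below the threshold, 872 held between 1000 and 6825 UMIs and entered no comparison. Their median was 2159.5 UMIs and the median mitochondrial share of a barcode 20.4%, and hormones made up 12.0% of their summed UMIs. The 33 members made up 0.430% of non-hormone UMIs there, against 1.26% in the cells analysed. The sensor Ern1 stood at 72.9 CPM of non-hormone UMIs against 45.4, and the ERAD adaptor Sel1l at 98.2 against 63.3. Manf stood at 128 against 832 and Sec61b at 224 against 1453.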
